A study of Homo sapiens with 7 samples.

Results

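Distal regions of open chromatin that were found in anterior foregut endoderm (hAFE) and pharyngeal foregut endoderm (hPFE), and in neither embryonic stem cells (hESC) nor definitive endoderm (hDE), are described here. There were 696 of them among 167407 merged regions of the series, and among 149700 that lay over 1 kb from both ends of every protein-coding gene. They made up 0.465% of those distal regions. The regions were selected on the deposited peaks themselves. Each overlapped a strong peak, ranked 80000 or better by its p-value, in both hAFE libraries and in the hPFE library, and overlapped no deposited peak of any rank in the 4 hESC and hDE libraries. Their presence in hAFE and hPFE and their absence from hESC and hDE are therefore the definition of the set and carry no test.

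The study used H1, an established human embryonic stem cell line, and followed its stepwise differentiation with ATAC-seq, in which the transposase Tn5 inserts adapters into accessible DNA. There were 2 libraries each of hESC, hDE and hAFE and 1 of hPFE. The labels give the stage names and the line, with no genetic change, and media, factors and days of culture are not stated there. Titles mark both hESC and both hDE libraries as re-analysed, each pointing to a record of an earlier series, whereas hAFE and hPFE carry no such mark. The contrast that defines the 696 regions thus coincides with this difference in origin, and stage and origin cannot be told apart in any of them. The labels also do not say whether replicates were separate cultures.

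Definitive endoderm is the germ layer that forms the gut tube, and its anterior part, the foregut, gives rise to the pharynx, thyroid, oesophagus, lung, stomach, liver and pancreas. The pharyngeal part forms the pouches, the source of thymus and parathyroid. Enhancers, the distal regulatory elements that drive stage-specific genes, are usually nucleosome-depleted when in use, and pioneer factors of the FOXA and GATA families are known to open chromatin at endodermal ones. Accessibility marks a candidate element and does not by itself show that it is active or which gene it serves.

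The genome sequence under all members was not read here. RefSeq promoter windows (GRCh38.p14, 250 bases before to 50 bases after an annotated start) overlapped 13 members, at 11 long noncoding RNA genes and at starts inside the coding genes SORT1 and SYTL5. Of these 13 windows, 5 held the summits of all 3 hAFE and hPFE libraries, and they are printed below since they are the members whose peak centre can be read. Capitals mark matches, on either strand, to AGATAA (the core of GATA sites), TGTTTAC (forkhead sites) and TGANTCA (AP-1 sites, bound by FOS and JUN). AP-1 was added to the marked motifs after its count was seen. The LOC124903956 window is chr17:27241660-27241959, minus strand. The SORT1 window is chr1:109393086-109393385, minus strand. LINC02343 is at chr13:34347793-34348092, plus strand, SYTL5 at chrX:38006303-38006602, plus strand, and LOC105374721 at chr5:34585588-34585887, plus strand.
LOC124903956: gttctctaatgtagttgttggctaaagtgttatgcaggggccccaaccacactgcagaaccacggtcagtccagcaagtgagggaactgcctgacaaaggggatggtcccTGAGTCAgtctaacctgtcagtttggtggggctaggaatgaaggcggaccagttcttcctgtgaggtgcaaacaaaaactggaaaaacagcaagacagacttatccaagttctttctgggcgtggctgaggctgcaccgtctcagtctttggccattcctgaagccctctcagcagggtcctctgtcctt
SORT1: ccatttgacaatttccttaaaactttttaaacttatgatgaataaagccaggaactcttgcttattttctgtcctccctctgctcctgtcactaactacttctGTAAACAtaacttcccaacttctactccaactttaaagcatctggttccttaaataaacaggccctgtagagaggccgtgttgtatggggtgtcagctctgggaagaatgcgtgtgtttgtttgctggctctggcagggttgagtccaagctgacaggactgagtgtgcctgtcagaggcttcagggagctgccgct
LINC02343: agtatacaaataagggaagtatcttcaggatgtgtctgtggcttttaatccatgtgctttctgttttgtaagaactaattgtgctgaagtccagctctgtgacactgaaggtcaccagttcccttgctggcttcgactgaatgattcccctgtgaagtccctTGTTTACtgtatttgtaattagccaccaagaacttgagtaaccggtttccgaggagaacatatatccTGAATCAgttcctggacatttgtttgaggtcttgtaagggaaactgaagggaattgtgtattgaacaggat
SYTL5: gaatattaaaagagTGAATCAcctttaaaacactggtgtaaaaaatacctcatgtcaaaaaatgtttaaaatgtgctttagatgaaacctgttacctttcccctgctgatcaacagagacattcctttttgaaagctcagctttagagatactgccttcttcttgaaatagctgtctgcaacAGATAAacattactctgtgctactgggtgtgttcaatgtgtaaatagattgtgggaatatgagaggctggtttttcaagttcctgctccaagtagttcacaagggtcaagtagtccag
LOC105374721: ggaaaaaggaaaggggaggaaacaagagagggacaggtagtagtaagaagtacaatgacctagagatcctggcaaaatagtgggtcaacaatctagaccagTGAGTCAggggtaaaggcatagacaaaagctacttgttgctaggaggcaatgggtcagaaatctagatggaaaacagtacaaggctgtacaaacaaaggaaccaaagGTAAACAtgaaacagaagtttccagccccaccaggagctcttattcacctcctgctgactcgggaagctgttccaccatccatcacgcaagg

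Each of the 5 windows held at least 1 marked match. Among the windows not printed, those of LOC105373968, LOC107987110, LOC112267974, RBM5-AS1 and LOC124903512 held none of these motifs. The share of promoter windows at large with any of them is not given here. Positions are counted from 1 at the 5′ end of the printed window. In the LOC124903956 window the summits lay at positions 130 and 134 in the hAFE libraries and at 193 in hPFE. SORT1, which encodes the sorting receptor sortilin, had its summits at 232 and 242 in hAFE and 227 in hPFE, with the forkhead match further upstream. In the SYTL5 window they lay at 223 and 215 in hAFE and at 153 in hPFE. LINC02343 had them at 216 and 223 in hAFE and 168 in hPFE, and LOC105374721 at 173 and 248 in hAFE and 207 in hPFE. The hAFE summits were thus within 10 bp of each other in all but the LOC105374721 window. The hPFE summit came closest to a single hAFE summit in SORT1, and lay between the hAFE summits in LOC105374721.

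Among the 13 windows at members, TGANTCA occurred in 5 (38.5%), against 7.68% of all 34961 promoter windows and 10.1% of the 4849 windows that overlapped other distal regions. TGTTTAC occurred in 3 (23.1%), against 3.42% and 4.06%. AACCNGTT, the site of the epithelial Grainyhead-like factors, also occurred in 3 (23.1%), against 1.73% and 1.67%. AGATAA was in 3 (23.1%), against 10.3% and 9.90%. TGACAG, bound by MEIS proteins, was in 6 (46.2%), against 15.8% and 16.4%, and TGATNNAT, bound by PBX with HOX, was in 4 (30.8%), against 7.37% and 7.26%. These are 13 windows chosen by an annotated start, so the shares describe them and not the 696 members.

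The other 16 of 22 motifs searched on both strands were in at most 2 of the 13 windows. In 2 windows each were AGGTCA (nuclear receptors), GGAATG (TEAD), TAATCC (OTX and GSC) and ATCAAAG (LEF and TCF). TGTGGTT (RUNX), CAGCTG (E-box) and CAGGTG (ZEB and SNAI) were in 1 each. None held GTTAATNAT (HNF1), CAAAGTCCA (HNF4), CCATTGT (SOX), ATTTGCAT (OCT), GGTGTGA (TBX), CACTTGA (NKX2), GTCTAGAC (SMAD) or TAATCCC (PITX, which contains the TAATCC of OTX).

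The rule removed most candidates at the step of absence. Strong peaks of both hAFE libraries and hPFE met in 28404 merged regions, of which 16284 were distal. Among these distal regions, 2750 had no strong peak in hESC or hDE. A weak peak was present in hDE alone in 585 (21.3%), in hESC alone in 429 (15.6%) and in both stages in 1040 (37.8%), which left the 696 members (25.3%). Most distal regions that were strong in the foregut libraries and not in hESC or hDE therefore overlapped a weaker listed peak of those stages. The lists are long, and no such share for other distal regions is given here. For comparison, 1417 distal regions were strong in both hAFE libraries and had no peak elsewhere, 11346 were strong in hPFE alone, 278 were strong in hDE, hAFE and hPFE with no peak in hESC, and 8062 were strong at every stage.

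An absent peak is not a fixed level of signal. Each list ended at 300000 peaks, so that the weakest peak listed depended on the library. Summit heights are given as the number of cut sites at the summit over the genome-wide background of the same library, both recovered from the deposited values. That background increases with depth. It came to 2.22 and 3.85 counts for hAFE and 5.66 for hPFE, against 2.11 and 4.62 for hESC and 4.58 and 7.94 for hDE. In the last 1000 peaks of the hESC and hDE lists the median summit lay at 2.84 to 4.66 times background, and the 95th percentile reached 9.32 times in hDE replicate 2. All 696 members stood above 9.32 times background in hAFE replicate 1, 581 (83.5%) in hAFE replicate 2 and 354 (50.9%) in hPFE. In all 3 libraries 306 members (43.97%) did. For the other members, at least 1 summit was no higher than some summits at the end of the hDE replicate 2 list. The rank limit itself fixed the count in hAFE replicate 1. Over all 16284 distal regions strong in the 3 libraries, the lowest summits were 11.3, 7.27 and 4.95 times background in hAFE replicates 1 and 2 and hPFE. The counts therefore carry no test of absence in hESC and hDE.

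**Figure D1:**
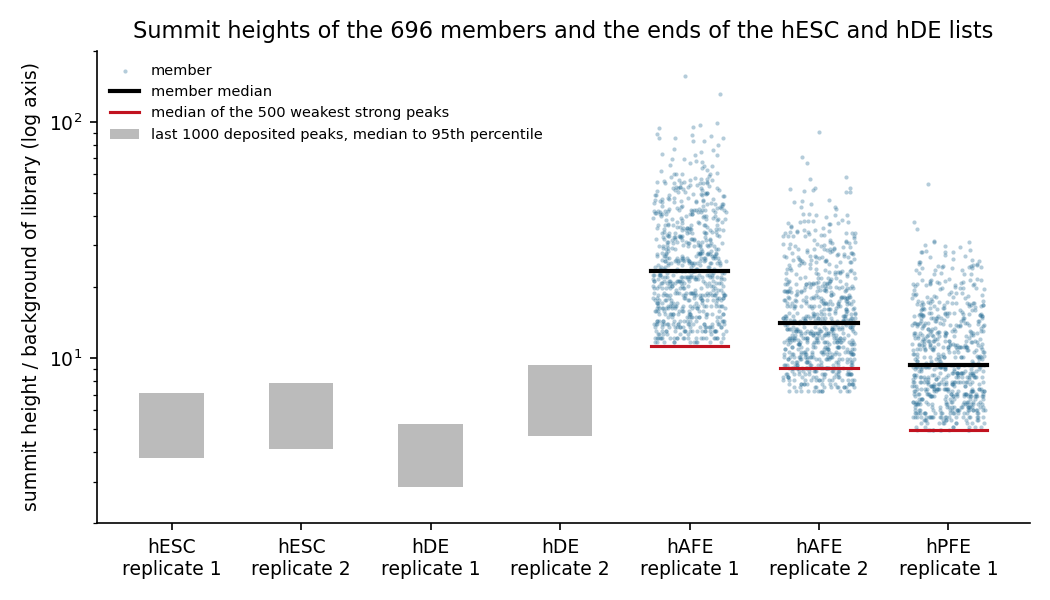
Summit height over the background of the library, on a log axis, for each member (points, with black lines at the median and red lines at the median of the 500 weakest strong peaks) in the hAFE and hPFE libraries. Grey bars give the last 1000 peaks of each hESC and hDE list, from the median to the 95th percentile. The member medians are 23.4, 14.0 and 9.36, and the hPFE points reach down to 4.95, below the top of the grey bar of hDE replicate 2 at 9.32.

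The members were of middling strength. Their summits stood at 11.7 to 157 times background in hAFE replicate 1 (median 23.4), at 7.27 to 90.4 times in hAFE replicate 2 (median 14.0) and at 4.95 to 54.6 times in hPFE (median 9.36). Over all 16284 distal regions strong in these 3 libraries the medians were 34.2, 19.7 and 10.2. The members thus lay below the other regions in each library, and least so in hPFE. In counts of cut sites the median summits were 52, 54 and 53. The deposited fold enrichment, the authors' value over a local background, had medians of 11.8, 9.0 and 6.51.

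In all 3 libraries, 24 members ranked 20000 or better and 360 ranked 60000 or better. Such counts for the other distal regions strong in these libraries are not given here. The poorest rank came from hAFE replicate 1 in 208 members, from hAFE replicate 2 in 245 and from hPFE in 243. At the limit, 39 members had a poorest rank between 78001 and 80000 and median summits of 15.3, 9.09 and 6.89 times background in hAFE replicates 1 and 2 and hPFE. The 41 regions ranked from 80001 to 82000, just outside, had 17.1, 9.87 and 7.07. The regions just outside were thus no lower than those just inside.

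The hAFE replicates placed their summits close together. In 634 members (91.1%) they lay within 50 bp of each other, with a median of 14 bp, against 91.9% of all 16284 distal regions strong in the 3 libraries. The hPFE summit lay within 50 bp of both in 487 (70.0%), against 76.6% of those regions. Where a library had more than 1 deposited peak in a member, as in 190 to 205 members, the best-ranked one was used. The summits compared can therefore be different ones. Heights were less alike. Across the 696 members Spearman's rho of the summit heights was 0.48 between the hAFE replicates, 0.12 between hPFE and hAFE replicate 1 and 0.11 between hPFE and hAFE replicate 2. Over the 16284 regions it was 0.74, 0.48 and 0.48. These are descriptions across regions that share their libraries, over a range that the limit on rank narrows.

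In most members the summit was lower in hPFE than in hAFE. It was below both hAFE libraries in 509 (73.1%), between them in 137 (19.7%) and above both in 50 (7.18%). Among all 16284 distal regions strong in the 3 libraries, 88.0% were below both and 2.69% above both, so a lower summit over background was the rule in the hPFE library at large. The median ratio of hPFE to the mean of hAFE was 0.468 in the members and 0.386 in those regions. Replicate 1 of hAFE stood above replicate 2 in 600 members (86.2%). When hAFE replicate 1 was left out and the rule reapplied, hPFE was above the remaining hAFE library in 32.5% of the resulting regions, so the share of 7.18% depended on that library. With 1 hPFE library, a difference between hAFE and hPFE has no replicate check.

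**Figure D2:**
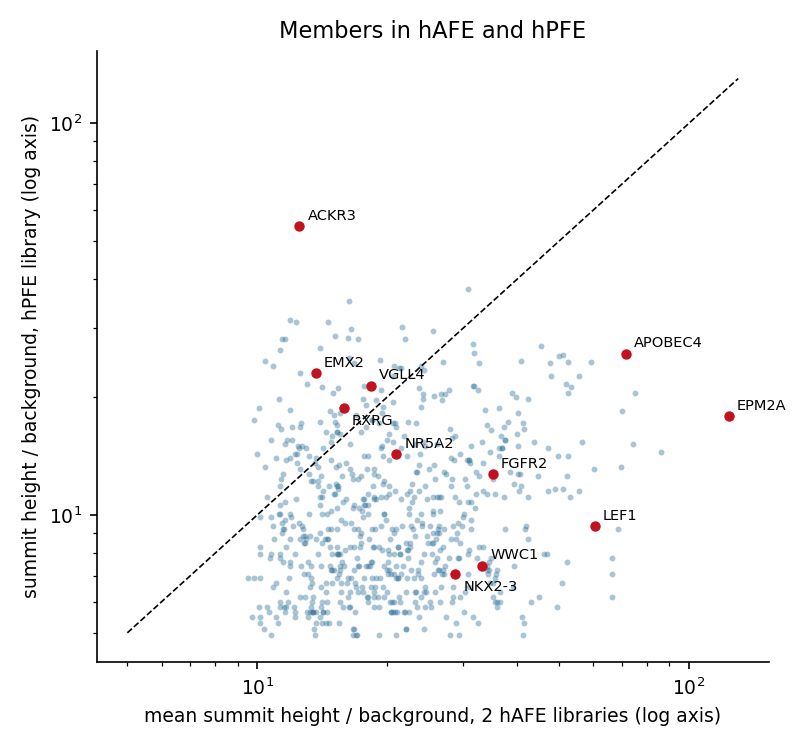
Each point is a member, with the mean summit height over background of the 2 hAFE libraries on the x axis and that of the hPFE library on the y axis, both log axes. The dashed line marks equal heights. Most points lie below it, ACKR3 (54.6 in hPFE) lies furthest above, and named members are in red.

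The members that stood highest in hPFE relative to hAFE were picked out after their values were seen. One lay 187336 bp from ACKR3, which encodes a scavenging receptor for the chemokine CXCL12. Its summit stood at 14.9 and 10.1 times background in hAFE replicates 1 and 2 and at 54.6 times in hPFE, a ratio of 4.37 to the hAFE mean, the highest of the 696. The hPFE summit lay 154 bp from the mean hAFE position, against a median of 20.5 bp over the members. This ratio may thus compare different summits within the region. Those near AUTS2, in ZBTB20, in CD55, in ADAMTS18 and in RBFOX1 followed, with ratios of 2.64, 2.53, 2.46, 2.42 and 2.37. These 6 ranked 67585 to 78488 in hAFE replicate 1, near the limit, and 231 to 5878 in hPFE. The hPFE summit also lay apart in the ADAMTS18 member, by 163.5 bp. It lay 4 to 22.5 bp from the mean hAFE position near AUTS2 and in ZBTB20, CD55 and RBFOX1. At the other end was a member 42999 bp from FTO, with 99.1 and 33.8 times background in hAFE and 6.18 times in hPFE, a ratio of 0.0931. Here the hPFE summit lay 126.5 bp from the mean hAFE position. Members in SPATA6, FARP1 and UNC5C followed, with ratios of 0.106, 0.117 and 0.118.

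The members were short regions, 253 to 1639 bp wide (median 592.5 bp). The nearest deposited peak of an hESC or hDE library was a median of 3369 to 4301.5 bp away, depending on the library. A peak of at least 1 of those libraries lay within 500 bp of 122 members (17.5%), with 48 to 57 members per library. The same share in the comparison sets is not given here. Members occurred on all 23 chromosomes analysed, from 0.237% of the distal regions of chromosome 19 to 0.583% of those of chromosome X.

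Another member lay within 100 kb of 47 members (6.75%) and within 1 kb of 4. The share within 100 kb was 13.5% for regions found in hAFE alone, 62.4% for hPFE alone and 3.60% for lasting regions, and it follows the number of regions in a set. The nearest end of a protein-coding gene was 1061 to 1851430 bp away, with a median of 60687.5 bp, against 53588 bp over all distal regions. It lay within 10 kb in 87 members (12.5%; exact 95% binomial interval 10.1% to 15.2%) and within 100 kb in 430 (61.8%; exact 95% binomial interval 58.1% to 65.4%), against 17.0% and 64.7% of all distal regions. Outside genes and over 100 kb from every gene end lay 169 members. An end of a noncoding gene lay within 1 kb of 48 members (6.90%), 37 of them at long noncoding RNAs, against 7.17% of all distal regions. The share within 10 kb was thus below that of all distal regions by more than its counting error. That share was 14.2% for hAFE alone, 13.6% for hPFE alone, 12.2% for lasting regions and 30.7% for regions open at every stage. The low share was therefore not particular to the members.

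Inside protein-coding genes lay 354 members (50.9%; exact 95% binomial interval 47.1% to 54.6%), against 46.0% of all distal regions. Exons, introns and untranslated regions cannot be told apart with the gene spans used. The share was 6.61 percentage points higher than in the regions found in hAFE alone (44.2%; 95% Wald interval 2.09 to 11.1 points; adjusted p = 0.0206 by a two-sided Fisher's exact test). It was 5.28 points higher than in those found in hPFE alone (45.6%; interval 1.45 to 9.10; adjusted p = 0.0206 by the same exact test), and 8.78 points higher than in those that lasted from hDE on (42.1%; interval 1.89 to 15.7; adjusted p = 0.0314, exact test). P-values were adjusted by Benjamini-Hochberg over 6 tests and count regions, not libraries, as units. The sets also differed in the libraries they required, and hPFE alone rested on 1 library. Median widths were 476 bp for hAFE alone, 380.5 bp for hPFE alone and 812.5 bp for lasting regions, against 592.5 bp for members.

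These differences were not robust. With 1 region kept per 100 kb they were 5.88, 4.32 and 7.96 points and none passed the threshold of 0.05 (each adjusted p = 0.0648, Fisher's exact test). At a rank limit of 50000 they were 1.59, 2.47 and 11.6 points and none passed either (adjusted p from 0.228 to 0.808, Fisher's exact test). Without hAFE replicate 1 the differences from hPFE alone and from lasting regions no longer passed (3.16 and 6.44 points), and without hDE replicate 2 that from lasting regions did not (5.53 points). The share with a gene end within 100 kb was 2.85, 3.86 and 4.23 points higher in the members than in the 3 sets, with intervals of -1.57 to 7.28, 0.136 to 7.58 and -2.61 to 11.1 points, and passed in none (adjusted p = 0.245, 0.0717 and 0.245, Fisher's exact test). That against hPFE alone passed without hAFE replicate 2 (6.998 points), hDE replicate 1 (4.96), hESC replicate 1 (3.95) or hESC replicate 2 (5.71). That against lasting regions passed without hAFE replicate 2 (7.06 points) or hDE replicate 1 (7.37), and turned negative without hESC replicate 2 (-0.69 points).

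**Figure D3:**
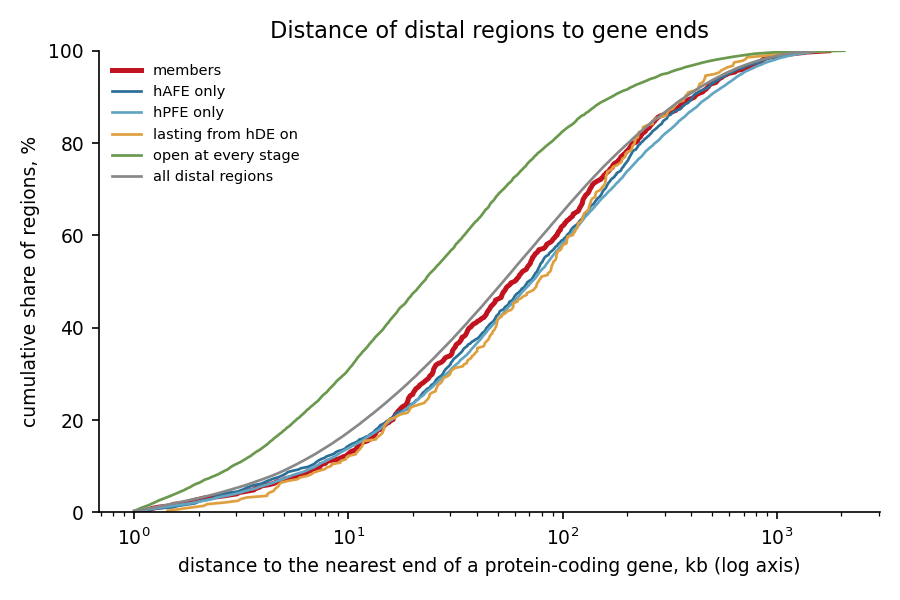
Cumulative share of regions, in percent, against the distance to the nearest end of a protein-coding gene on a log axis, for the members and the other distal sets. Medians are 60.7 kb for the members, 69.9 kb for hAFE only, 72.9 kb for hPFE only, 77.6 kb for lasting regions and 22.7 kb for regions open at every stage.

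Assigning each region to the nearest gene end within 100 kb gave 430 members at 408 genes, which are 2.63% of the 15486 genes with a distal region. Of these genes, 387 had 1 member, 20 had 2 and CRIM1 had 3. They had a median of 12 distal regions each, against 4 for genes without a member, and a gene with more regions has more chances to hold a member. At the 331 of them whose promoter window could be matched, a strong peak of every one of the 7 libraries overlapped the window in 185 (55.9%), and no deposited peak did in 42 (12.7%). Among 11987 matched genes without a member the shares were 57.1% and 13.9%. At 0 of the 331 was the promoter itself strong in hAFE and hPFE and without a peak in hESC and hDE, against 2 of the 11987. The pattern of the distal members was therefore seen at no matched window of their nearest genes. The matched windows do not cover every annotated start. That matched for SORT1 was strong in all 7 libraries, whereas the SORT1 window printed above overlaps a member.

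CRIM1 encodes a transmembrane protein that binds BMPs and limits their secretion. All 3 of its members lay inside the gene, which had 31 distal regions. The strongest was chr2:36451484-36451851, with 37.8 and 10.1 times background in hAFE replicates 1 and 2 and 6.89 times in hPFE. The next, chr2:36505726-36506167, had 14.0, 9.09 and 5.83, and chr2:36486493-36487195 had 13.5, 9.09 and 10.1. Apart from the first in hAFE replicate 1 and the third in hPFE, these summits lay below the member medians. With assignment limited to 50 kb only 1 member stayed with CRIM1. Around them were peaks present at all stages, such as the one 28.5 to 29.0 kb from the centre of the map of deposited peaks, which reached 21.3 times background in hDE replicate 2.

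**Figure D4:**
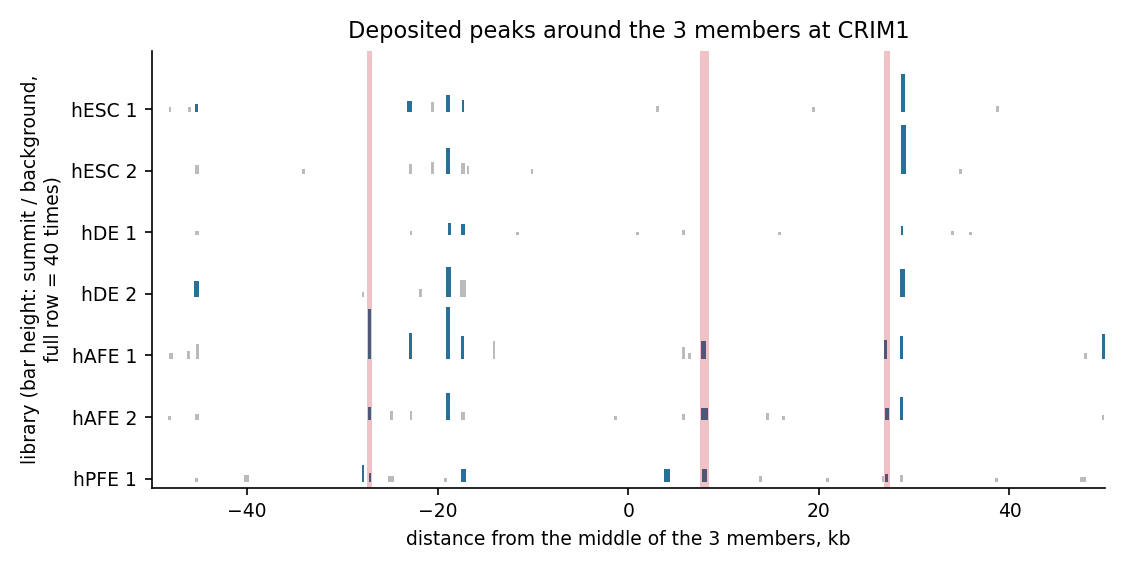
Deposited peaks of the 7 libraries around the 3 members at CRIM1, by distance in kb from their middle. Bars give the summit height over background (a full row is 40 times), strong peaks in blue and weaker ones in grey, with members shaded. Only hAFE and hPFE peaks fall in the shaded regions, and a weak hDE replicate 2 peak lies within 500 bp of the leftmost.

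Genes of foregut identity had few members or none. The 15 foregut transcription factor genes with a distal region had 222 such regions and 0 members. Lung, thyroid and oesophagus genes had 0 of 281. Pharyngeal endoderm and pouch genes had 1 of 310, at NKX2-3, a homeobox gene of the pharyngeal floor and gut mesoderm. That member, chr10:99555350-99555830, 18826 bp from the gene, stood at 18.9 and 38.4 times background in hAFE replicates 1 and 2 and at 7.07 times in hPFE. It was higher in hAFE replicate 2 than in replicate 1, the reverse of most members. Over all genes 0.444% of assigned distal regions were members (430 of 96921), so that about 1 member would match that rate in each of these lists, and the counts do not set them apart.

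The stage markers gave the same picture. The 15 marker genes CXCR4, EOMES, EYA1, FOXA2, GATA4, GATA6, HOXA3, NANOG, NKX2-3, PAX1, PAX9, POU5F1, SOX17, SOX2 and TBX1 had 195 distal regions and 1 member. FOXA2, the forkhead pioneer factor of endoderm, had 21 distal regions, and PAX9, a pouch regulator, had 17. EYA1, a transcription cofactor of the pouches, had 21, of which 2 were found in hAFE alone and 1 in hPFE alone. None of the markers of hAFE or hPFE other than NKX2-3 was reached, so these regions do not check the stage labels.

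Most signalling genes had no member, as did most genes at large, since 2.63% of all genes with a distal region had one. Over all genes 0.444% of assigned distal regions were members. At 0 to 2 members each, the counts of the pathway lists below do not set them apart from that share. FGFR2, the receptor tyrosine kinase through which FGF10 acts on foregut buds, held a member at chr10:121511979-121512555 inside the gene. Its summit was 54.1 and 16.1 times background in hAFE replicates 1 and 2 and 12.7 times in hPFE. This was the only member among 264 distal regions of FGF pathway genes.

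WNT pathway genes had 2 members among 417 distal regions. LEF1, a nuclear effector of WNT signalling, held one at chr4:108058539-108059079, with 82.9 and 37.9 times background in hAFE and 9.36 times in hPFE. LRP5, a WNT co-receptor, held the other, with 24.8 and 19.7 in hAFE and 14.1 in hPFE. The LEF1 summit was high in both hAFE libraries and at the member median in hPFE.

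BMP pathway genes had 2 of 303. BMP5, a ligand, had a member 27166 bp from the gene, with 16.7 and 26.8 times background in hAFE and 7.42 times in hPFE. BMPR2, the type II receptor, held one with 22.1 and 26.8 in hAFE and 5.83 in hPFE. Both were higher in hAFE replicate 2. Nodal and TGF-beta genes had 0 of 170, and hedgehog genes 0 of 162.

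Retinoic acid genes had 1 of 160, near RXRG, a retinoid X receptor. This member stood at 22.1 and 9.61 times background in hAFE and at 18.7 times in hPFE, between the hAFE libraries. The 183 distal regions of Notch genes included 1 member, in MAML3, a coactivator of the Notch complex, with 21.2 and 8.31 in hAFE and 8.30 in hPFE.

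Hippo pathway genes had 2 of 252. WWC1, an upstream activator of the kinase cascade, held a member with 43.7 and 22.6 times background in hAFE and 7.42 times in hPFE. VGLL4, a TEAD cofactor, was the nearest gene to a member that lay inside its neighbour ATG7, with 13.5 and 23.1 in hAFE and 21.4 in hPFE. AP-1 genes had 1 of 76, near BATF, a partner of JUN proteins, with 34.2 and 12.5 in hAFE and 17.1 in hPFE. The RXRG, VGLL4 and BATF members were those of the pathway genes at which hPFE reached the range of the hAFE libraries.

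The remaining lists held genes of endoderm, epithelium, other lineages and housekeeping, and had 1 member each where they had any. These made up 0.358% to 0.694% of the distal regions of those lists, against 0.444% over all genes. NR5A2, an orphan nuclear receptor of liver and pancreas, held a member with 22.5 and 19.5 times background in hAFE and 14.3 times in hPFE, the only one among 144 distal regions of liver, pancreas and hindgut genes. GATA3, a zinc finger factor listed with the definitive endoderm and mesendoderm genes (1 of 181), had one 88380 bp away, with 24.3, 9.09 and 9.19. KRT18, a keratin of simple epithelia (epithelial genes 1 of 181), had one with 32.0, 13.5 and 9.36. PDGFRB, a receptor of mesenchymal cells (mesoderm and mesenchyme genes 1 of 279), held one with 41.9, 21.8 and 10.4, and EMX2, a homeobox gene of forebrain and kidney (neural and neural crest genes 1 of 195), had one with 16.7, 10.6 and 22.97. EMX2 was the listed gene whose member stood above both hAFE libraries in hPFE. Pluripotency genes had 0 of 144, endothelial and blood genes 0 of 129 and housekeeping genes 0 of 49.

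Over all 20 lists together, 16 of 355 genes had a member (4.51%, against 2.63% of all genes). By region the share was 0.415% (16 of 3853), against 0.444% for all genes. The listed genes thus had more distal regions each, and members among these were as frequent as elsewhere.

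**Figure D5:**
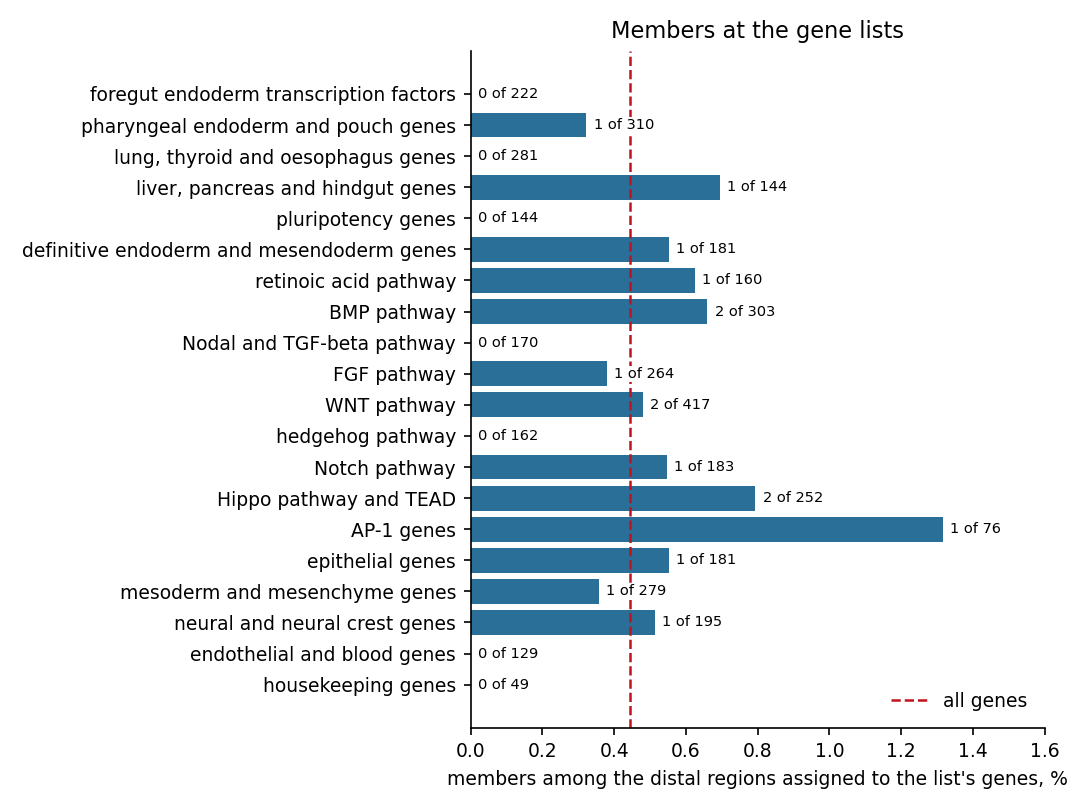
Members among the distal regions assigned to the genes of each list, in percent, with the counts beside the bars and the value for all genes as a dashed line at 0.444%. Every bar rests on 0 to 2 members, so the differences between bars are differences of 1 or 2 regions.

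None of the 10 best-ranked members was assigned to a gene of the foregut, pharyngeal or lung, thyroid and oesophagus lists. In those lists NKX2-3 alone had a member, so this was the rule for members of any rank. The first, by its poorest rank over the 3 libraries, was chr1:183699373-183700140 inside RGL1, a RAS effector, with APOBEC4 as the nearest gene end. It stood at 85.6 and 57.1 times background in hAFE replicates 1 and 2 and at 25.8 times in hPFE. The second, chr2:158184694-158185439 inside CCDC148, had 65.8, 52.7 and 24.6. The third, chr14:43204783-43205341, lay 1298808 bp from the nearest gene end, that of FSCB, and had 87.4, 52.2 and 18.4. The remote region was the highest of the 3 in hAFE replicate 1 and the lowest in hAFE replicate 2 and in hPFE.

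A member 7266 bp from EPM2A, which encodes the glycogen phosphatase laforin, had the highest hAFE summits of all, at 157 and 90.4 times background, and 17.8 times in hPFE. Inside MYO5B, the motor of apical vesicle transport in epithelia, one stood at 55.0 and 29.9 in hAFE and 19.8 in hPFE. Of the first 10, a further 4, near ADRA1B, SNX16, CCDC190 and MAIP1, had 46.4 to 73.0 times background in hAFE replicate 1, 30.6 to 33.8 in replicate 2 and 14.8 to 24.6 in hPFE. Each of the regions given here was higher in hAFE replicate 1 than in replicate 2, and higher in both than in hPFE.

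Pairs of members at 1 gene often differed in height. At FTO, whose introns are known to hold enhancers of the neighbouring IRX genes, the member inside the gene had 39.2 and 37.7 times background in hAFE and 12.9 times in hPFE. The one beyond its end, with 99.1, 33.8 and 6.18, was the member of lowest hPFE ratio given above. Near SOX11, a transcription factor of neural and mesenchymal progenitors, the members had 27.9, 11.9 and 15.5, and 22.97, 15.3 and 4.95. At USP25, a deubiquitinase, the hPFE summits of 14.3 and 24.6 were both above the hPFE median. In TLE4, a Groucho corepressor, and beyond its end, the members had 20.7, 7.53 and 6.01, and 23.9, 7.27 and 16.1.

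Of the other genes with 2 members, PSD3 and TAS2R1 each had a pair separated by under 1 kb. The TAS2R1 pair differed in direction: one stood at 40.5 and 28.1 times background in hAFE and 7.07 in hPFE, and its neighbour at 17.1, 18.2 and 21.4. At PLB1, MTHFD1L, PDPK1, RBM20, PARN, LIMCH1, LOC124902528, MAP2K5, ARHGAP10, CMTM8, FRY, LRIG3 and GARNL3, the better-ranked of the 2 members stood at 15.3 to 53.6 times background in hAFE replicate 1, 8.57 to 50.6 in replicate 2 and 6.01 to 20.0 in hPFE. The 2 lowest hPFE values of these belonged to FRY and GARNL3, and the highest to PLB1, a phospholipase gene.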

How the data were processed

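ATAC-seq peak lists of 7 H1 libraries were used, 1 list per library. Per the submitters' processing notes the build was hg38 and DiffBind was used. Tokens in the deposited file names record removal of duplicates and mitochondrial reads, the use of Tn5 cut sites, a limit on p of 0.01 and one of 300000 peaks. Names of the aligner and peak caller were not given in the sources used here. Deposited values are a display score (not used), a fold enrichment (ratio) over a local background, −log10 p and −log10 q, and the offset of the summit.

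The peak number was found to be the rank by −log10 p in every list. Summit counts and background were recovered from the deposited fold and −log10 p for 100% of peaks, within 0.001. Strong peaks (rank 80000 or better, chromosomes 1 to 22 and X) were merged by overlaps of at least 1 bp. Genes were the 19974 protein-coding spans of RefSeq, GRCh38.p14. In 331 of the 408 genes with a member the symbol matched a promoter window. Read totals were not used here, and the background stands for depth. Binomial intervals cover counting error only.

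Location was tested with two-sided Fisher's exact tests in scipy 1.17.1 (Python 3.11.15), checked on simulated data. Named genes were the 25 with the most members, up to 4 per list with at least 1 member, 15 stage markers, and the genes at the 10 best-ranked members. A few of the genes and motifs so chosen are not reported here. Members, gene lists and motifs were chosen with earlier results of these data known. Motif tests about all summits were planned and could not be run without a genome sequence. The alternatives were other rank limits, a height limit, other rules of absence, overlap and distance, thinning, and leaving out each hESC, hDE and hAFE library.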

Additional observations from a re-analysis of the deposited data

How the results depend on the processing

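The number of members followed the rule closely. It was 231 at a rank limit of 50000, 1122 at 100000 and 2524 at 150000, 311 where a summit of at least 10 times background replaced the rank, and 2750 where only strong peaks of hESC and hDE were barred. It ran from 795 to 1144 without 1 library, and was 1144 without hAFE replicate 1 and 1081 without hAFE replicate 2. The share with a higher summit in hPFE was 1.73% at rank 50000, 9.89% at 100000, 12.3% at 150000 and 14.8% with the height limit, and 6.67% to 32.5% without 1 library. With the height limit the median distance to a gene end was 43454 bp and the share with one within 100 kb was 68.5%. Without 1 library these ran from 52119 to 64451 bp and from 59.9% to 65.0%, and the share inside genes from 49.0% to 51.2%. Both hAFE summits lay within 50 bp in 95.7% at rank 50000, 87.0% at 150000 and 90.9% to 91.3% without 1 hESC or hDE library, and this could not be computed without an hAFE library.

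In Fisher's exact tests, the differences in the share inside genes from the hAFE, hPFE and lasting sets were 5.88, 4.32 and 7.96 points with 1 region per 100 kb, and 1.59, 2.47 and 11.6 points at rank 50000, none past the threshold. That from lasting regions was 4.91 points at rank 100000 (adjusted p = 0.108, Fisher's exact test). Without 1 library they ran from 3.98 to 6.53, 3.16 to 5.94 and 5.53 to 9.06 points. For a gene end within 100 kb they ran from 0.231 to 3.95, 2.24 to 6.998 and -0.694 to 7.37 points, and that from hPFE alone passed at rank 100000 (3.49 points, adjusted p = 0.0441, Fisher's exact test). The cause of these changes was not tested.

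No paired analysis was possible because the results are counts and shares of regions and hPFE has 1 library. The planned motif tests and their alternatives were not run. Depth limits what absence means, since backgrounds differed and the lists ended at different heights.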
